A study of Mus musculus with 12 samples.

Results

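The whey acidic protein (WAP) protease inhibitors are small secreted proteins, and 7 of their genes, Slpi, Wfdc2, Wfdc18, Wfdc12, Wfdc15b, Wfdc3 and Wfdc1, were followed here in the oviduct and uterus of mice in preimplantation pregnancy. They were chosen by name, with earlier results of these data known, and all 7 were measured among 19938 genes. The shares of all genes given beside their counts are therefore a description only. RNA came from flushed oviducts and flushed uterine horns and was hybridised, 1 biotin-labelled sample to an array, to 12 Affymetrix mouse gene arrays. Mice were injected under the skin with estradiol (E2) at 10 µg/kg a day, about 250 ng for each mouse, in 100 µl of sesame oil, or with the oil alone (0 µg/kg), from day 0.5 to day 2.5 after mating. Tissue was taken on day 3.5, which gave 4 groups of 3 biological replicates, uterus with oil or E2 and oviduct with oil or E2. The sources used here do not state strain, age or how many mice an array stands for. The deposited value of each probe set, the group of probes that reads 1 transcript region, is an intensity, and all levels below are its log2.

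A WAP domain is a compact fold held together by disulfide bonds, and in several of these proteins it blocks serine proteases, while others kill bacteria or act on cell growth. Slpi, the secretory leukocyte protease inhibitor, blocks neutrophil elastase and cathepsin G and protects mucosal surfaces. Wfdc2 is a secreted product of epithelia of the reproductive tract and airways, and Wfdc18 was described as an extracellular proteinase inhibitor of the mammary gland. Wfdc12 and Wfdc15b are known as antibacterial proteins, and Wfdc1 as a secreted growth-restraining product of stromal cells. A role of Wfdc3 is less settled.

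Of the 7 genes, 5 (Wfdc12, Wfdc15b, Slpi, Wfdc2 and Wfdc3) belong to the WAP cluster on mouse chromosome 2, Wfdc18 lies on chromosome 11 and Wfdc1 on chromosome 8. RefSeq promoter sequences (GRCm38.p6) were at hand for 6 of the 7, and those of the 3 genes that rose with E2 in the uterus and of Wfdc15b, which fell there, are shown to set their upstream letters side by side. Each is the 250 bases before the annotated start, 5′ to 3′ on the gene's strand, for Slpi at chr2:164356508-164356757 (minus strand), for Wfdc2 at chr2:164562465-164562714 (plus strand), for Wfdc18 at chr11:83708754-83709003 (plus strand) and for Wfdc15b at chr2:164221664-164221913 (minus strand). Capitals mark matches to the motifs searched.
Slpi: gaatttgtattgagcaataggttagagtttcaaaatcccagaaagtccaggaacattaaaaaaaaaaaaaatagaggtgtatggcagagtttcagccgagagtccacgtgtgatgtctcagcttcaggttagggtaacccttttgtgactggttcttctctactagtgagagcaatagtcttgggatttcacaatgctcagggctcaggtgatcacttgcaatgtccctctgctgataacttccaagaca
Wfdc2: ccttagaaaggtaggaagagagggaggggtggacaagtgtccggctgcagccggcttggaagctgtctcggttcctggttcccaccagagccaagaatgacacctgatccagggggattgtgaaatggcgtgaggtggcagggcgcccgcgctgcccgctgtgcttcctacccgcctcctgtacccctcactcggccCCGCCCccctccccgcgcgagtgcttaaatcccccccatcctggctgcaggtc
Wfdc18: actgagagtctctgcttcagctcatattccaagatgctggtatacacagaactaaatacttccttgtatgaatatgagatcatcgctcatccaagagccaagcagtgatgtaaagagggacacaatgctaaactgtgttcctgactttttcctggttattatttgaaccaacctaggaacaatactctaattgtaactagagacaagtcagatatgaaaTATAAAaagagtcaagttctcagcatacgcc
Wfdc15b: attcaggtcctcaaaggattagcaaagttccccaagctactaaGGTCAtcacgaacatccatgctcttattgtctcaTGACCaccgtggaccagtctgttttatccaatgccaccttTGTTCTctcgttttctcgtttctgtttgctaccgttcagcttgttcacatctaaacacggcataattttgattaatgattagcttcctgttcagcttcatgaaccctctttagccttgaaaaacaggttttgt

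In all, 6 motifs were searched on both strands: the full estrogen response element (GGTCA and TGACC with any 3 bases between), a single arm of it GGTCA (which every match to the full element also holds), a single arm of the progesterone response element TGTTCT, the Sp1 site GGGCGG, the AP-1 site TGANTCA and the TATA box TATAAA. The full estrogen element was in 0.0639% of all 32851 promoter windows of that length and in 0 of the 6 here. Its single arm was in 35.2% of windows and matched at 2 places in Wfdc15b, 207 to 203 and 173 to 169 bases before the start, and at 1 place in Wfdc3. Wfdc15b also held the progesterone element arm (in 16.1% of windows), 133 to 128 bases before the start. A TATA box (12.4% of windows) lay 31 to 26 bases before the start of Wfdc18, and an Sp1 site on the minus strand (32.7%) 53 to 48 bases before that of Wfdc2. The AP-1 site was in 6.75% of windows and in 0 of these 6, and 2 of the 6 windows, those of Slpi and Wfdc12, held no match to any motif. Matches describe the letters only.

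Array medians lay between 89.5 and 92.9 in intensity units. Tissue labels matched their markers: the mean log2 level of 3 uterine Hox genes was 9.79 to 9.91 in oil uterus and 6.64 to 6.75 in oil oviduct, and that of 8 genes of ciliated cells, a hallmark of the oviduct, was 5.76 to 6.02 against 8.30 to 9.38. Oil replicate 3 stood apart in both tissues, with 177 uterine and 302 oviductal genes displaced by over 1 log2 unit against the other arrays of its group, and 8 to 62 on each other array. On its oviduct array the mean of 5 corpus luteum markers was 8.62, against 4.81 to 5.59 on the other oviduct arrays. Fits without both of its arrays are therefore given beside some of the results. Y-linked genes, which female tissue lacks, reached 7.50 (Sry) and otherwise at most 5.36, so the size of a change among lower values is uncertain. That holds for Slpi and Wfdc12 on every array, Wfdc3 on all but 1 (and on every array by its second probe set), and Wfdc18 and Wfdc15b in uterus.

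**Figure D1:**
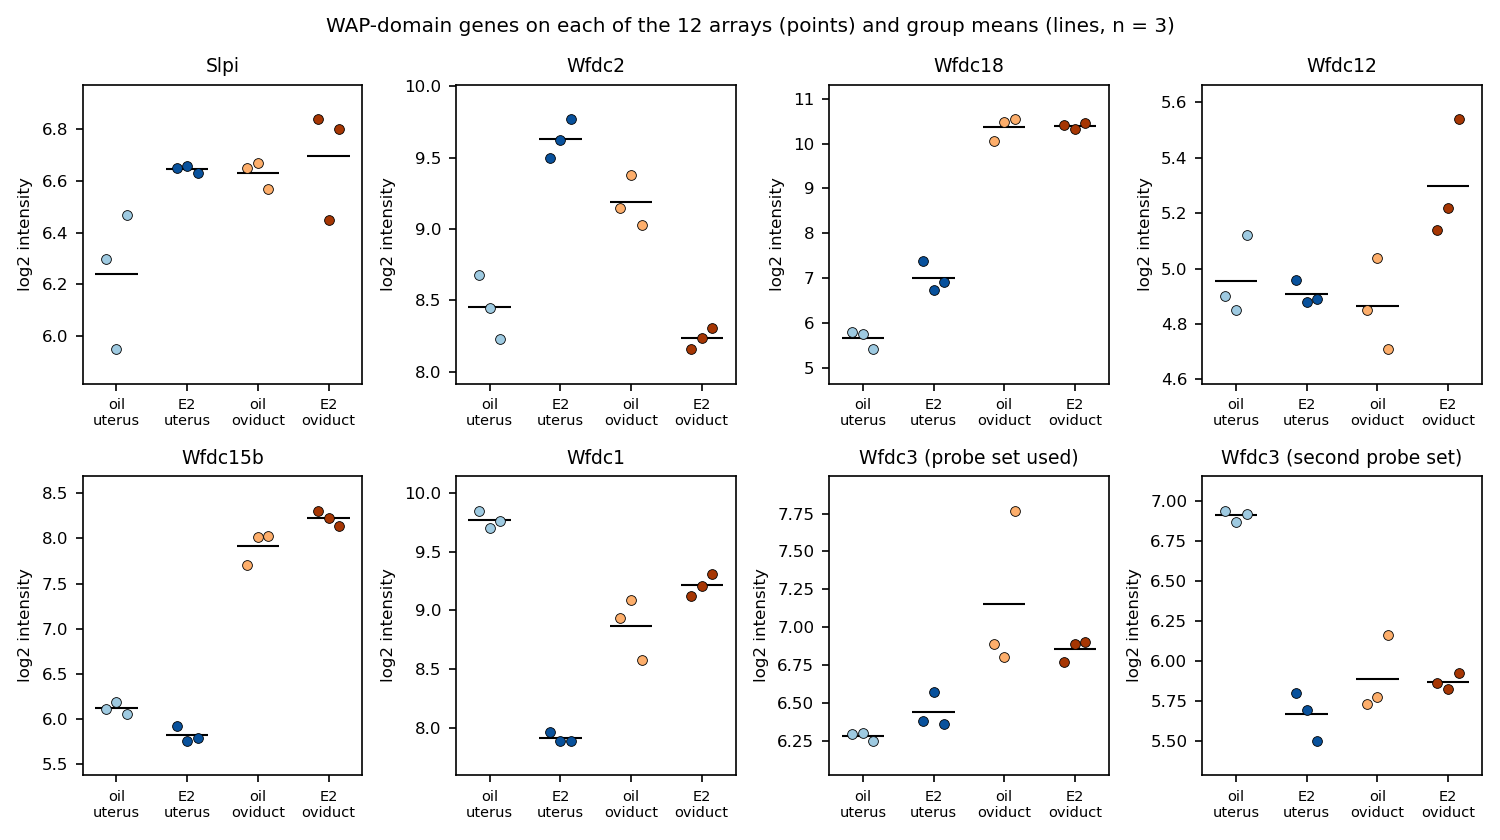
Log2 intensity of the 7 WAP-domain genes on each of the 12 arrays (points) with the group mean (line, n = 3), with both probe sets of Wfdc3. The y axes differ between panels. Wfdc2 is highest in E2 uterus and lowest in E2 oviduct, Wfdc18 and Wfdc15b are high in both oviduct groups, and Wfdc1 is lowest in E2 uterus.

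The effect of excess E2 on the uterus was asked first. In the uterus, Wfdc2 and Wfdc18 more than doubled with E2, Slpi rose slightly, Wfdc1 fell 3.63-fold and Wfdc15b fell slightly. By limma's moderated test, adjusted over all 19938 genes at a threshold of 0.05, 3 of the 7 genes rose and 2 fell, where 26.7% of all genes were called in this comparison (12.4% higher and 14.3% lower). The median over the 7 was 0.15 and over all genes -0.001. The median of 0.15 is the value of Wfdc3, whose second probe set gave -1.25, as told below. In 6 of the 7 genes the E2 and oil arrays of the uterus did not overlap, and 40.5% of all genes share that property.

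In the oviduct, where few genes passed the test, Wfdc2 fell and no other member passed. That is 1 of 7 genes, against 0.291% of all genes called there (0.13% lower). Arrays of the 2 oviduct groups did not overlap for 4 of the 7 genes, against 17.4% of all genes. At an unadjusted p under 0.05 there were also 4, Wfdc2, Wfdc12, Wfdc15b and Wfdc1, against 10.5% of all genes. The median over the 7 was 0.07 and over all genes -0.006.

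**Figure D2:**
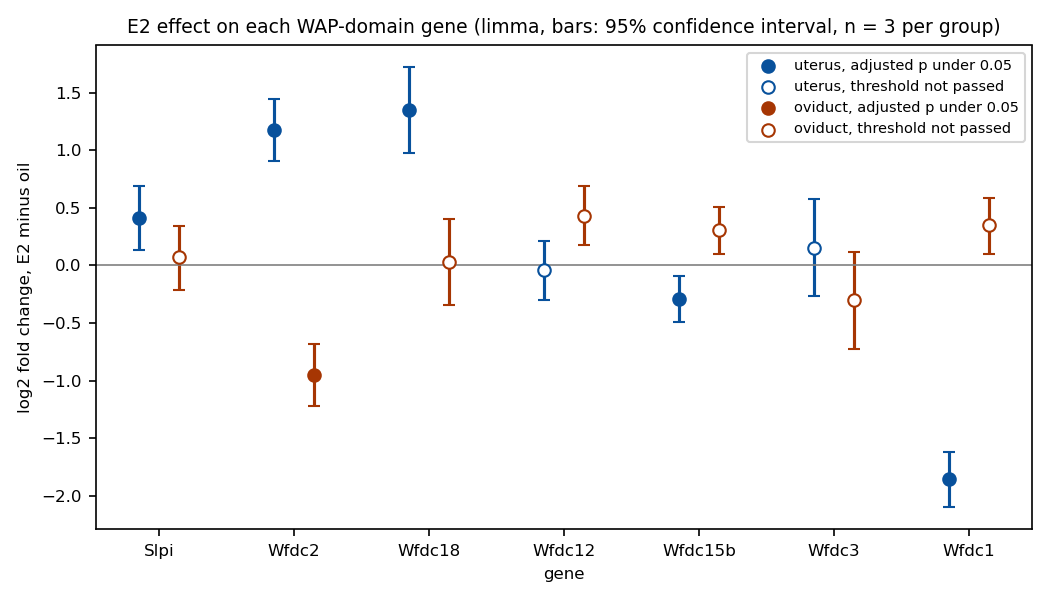
Log2 fold change of E2 against oil for each of the 7 genes in uterus (blue) and oviduct (brown), with 95% confidence intervals of the limma fit (n = 3 arrays per group). Filled points have an adjusted p under 0.05. Wfdc2 is the gene with filled points on both sides of 0, at 1.18 and -0.95.

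Slpi, the elastase inhibitor, was at 6.30, 5.95 and 6.47 on the oil uterus arrays and at 6.65, 6.66 and 6.63 on the E2 uterus arrays. All E2 uterus arrays lay above all oil arrays, and the rise was 0.41 log2 units (SE 0.13, 1.33-fold, limma adjusted p = 0.034). It was a weak call: the adjusted p was 0.053 in a fit of the uterus alone, and without 1 array it ran to 0.060 (oil uterus replicate 1, rise 0.44), 0.13 (oil uterus replicate 2, 0.26), 0.085 (E2 uterus replicate 1, 0.40), 0.089 (E2 uterus replicate 2, 0.40) or 0.070 (E2 uterus replicate 3, 0.42). Across all 22 alternatives the rise lay between 0.26 and 0.52, and 16 of them kept the call. Oviduct arrays were at 6.65, 6.67 and 6.57 with oil and at 6.84, 6.45 and 6.80 with E2. Those groups overlapped, and the difference was 0.07 with a 95% interval from -0.21 to 0.34. Oil uterus had the lowest mean for Slpi, 6.24, but its highest array (6.47) lay above the lowest E2 oviduct array (6.45). E2 uterus (6.65), oil oviduct (6.63) and E2 oviduct (6.69) overlapped one another. Neutrophils are a known source of Slpi, and their 10 markers had a summed intensity of 488 to 569 in oil uterus, 783 to 904 in E2 uterus, 357 to 438 in oil oviduct and 441 to 489 in E2 oviduct. In the uterus 2 of these 10 rose with E2 and 0 fell by limma, with a median of 0.04 over the list. Most of the rise of the sum lay in Ly6g, whose mean log2 level went from 5.05 to 8.08, while Elane, the gene of neutrophil elastase, was at means of 5.44 and 5.58. Their part in the Slpi result was not tested.

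Wfdc2, the secreted epithelial product, was at 8.68, 8.45 and 8.23 in oil uterus and at 9.50, 9.62 and 9.77 in E2 uterus. No arrays overlapped, and the rise was 1.18 (SE 0.12, 2.26-fold, limma adjusted p = 3.5e-05). In the oviduct its levels were 9.15, 9.38 and 9.03 with oil and 8.16, 8.24 and 8.31 with E2. Again no arrays overlapped, but here Wfdc2 fell, by 0.95 (SE 0.12, 1.93-fold, limma adjusted p = 0.0095). The oviductal call ended in a fit of the oviduct alone (adjusted p = 0.053) and without E2 oviduct replicate 1 (-0.91, adjusted p = 0.060) or replicate 2 (-0.95, 0.056), and without both arrays of oil replicate 3 the fall was 1.03. The size of the fall was between 0.85 and 1.03 in all 23 alternatives.

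The effects of E2 on Wfdc2 in oviduct and uterus differed by -2.13 log2 units (SE 0.17, interaction contrast, limma adjusted p = 2.1e-05), and this call held in all 22 alternatives. With oil, Wfdc2 was 0.73 higher in oviduct than in uterus (SE 0.12, adjusted p = 5e-04), and with E2 it was 1.40 lower (SE 0.12, limma adjusted p = 5.3e-06). The order of its levels was therefore E2 uterus (9.63), oil oviduct (9.19), oil uterus (8.46) and E2 oviduct (8.24), and oil uterus and E2 oviduct arrays overlapped. Genes called by limma in both tissues in opposite directions numbered 8 of 19938 (0.0401%). Besides Wfdc2 these were Acsf2, Adgrg2, Apela, Gulo and Rassf5, which fell in uterus and rose in oviduct, and the tight junction gene Cldn4 and Pla2g5, which like Wfdc2 rose in uterus (0.32 and 0.37) and fell in oviduct (-0.46 and -0.57). They were singled out after their values were seen.

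Wfdc18, the mammary proteinase inhibitor, was at 5.79, 5.76 and 5.42 in oil uterus and at 7.38, 6.73 and 6.91 in E2 uterus. These arrays did not overlap, and the rise was 1.35 (SE 0.17, 2.55-fold, limma adjusted p = 0.00013), with 1.23 without both arrays of oil replicate 3. In the oviduct the gene was at 10.07, 10.49 and 10.55 with oil and at 10.41, 10.32 and 10.46 with E2. Oviduct groups overlapped, with a difference of 0.03 and a 95% interval from -0.34 to 0.40. The E2 effects in oviduct and uterus differed by -1.32 (SE 0.24, limma adjusted p = 0.0044). Even with E2 the uterus stayed far below the oviduct: Wfdc18 was 4.71 higher in oviduct than in uterus with oil (SE 0.17, 26.2-fold, limma adjusted p = 5.5e-09) and 3.39 higher with E2 (SE 0.17, 10.5-fold, limma adjusted p = 6.8e-08). Uterine levels of Wfdc18 were under 7.50, the top Y-linked value, which leaves the size of these folds uncertain.

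Epithelial markers moved in the uterus with Wfdc2 and Wfdc18. Of 9 such markers 8 rose with E2 and 0 fell by limma, with a median of 0.82, and their summed intensity was 3850 to 4480 in oil uterus, 8083 to 8790 in E2 uterus, 8772 to 9845 in oil oviduct and 8251 to 8756 in E2 oviduct. In bulk tissue, a changed number of epithelial cells and a changed amount of RNA in each cannot be told apart. Set against the mean log2 of the 9 markers on the same array, Wfdc2 was at 0.04, 0.03 and -0.34 in oil uterus and at 0.03, 0.15 and 0.20 in E2 uterus, which overlap. In the oviduct the same difference was -0.35, -0.29 and -0.61 with oil and -1.30, -1.13 and -1.16 with E2, which do not. For Wfdc18 it was -2.85, -2.66 and -3.15 in oil uterus and -2.09, -2.74 and -2.67 in E2 uterus, again overlapping. Relative to the epithelial markers, Wfdc2 thus lay lower on every E2 array of the oviduct. Wfdc18, Wfdc12, Wfdc15b and Wfdc1 lay higher on every E2 oviduct array, and Slpi and Wfdc3 overlapped. Wfdc18 was at 0.57 to 0.91 in oil oviduct and 0.95 to 0.99 in E2 oviduct. In the uterus neither Wfdc2 nor Wfdc18 separated the groups, but Wfdc2 overlapped narrowly, with an oil array at 0.04 and an E2 array at 0.03. Slpi by the same measure was at -2.34, -2.46 and -2.10 in oil uterus and at -2.82, -2.80 and -2.95 in E2 uterus, lower on every E2 array. So were Wfdc12, Wfdc15b, Wfdc1 and Wfdc3 by its probe set with the higher mean. The epithelial mean itself went from 8.42 to 8.64 in oil uterus to 9.47 to 9.57 in E2 uterus. Any gene that rises less than this mean falls by this measure. In the oviduct 1 of the 9 markers fell, Cldn4, with a median of -0.15 over the 9. Their mean there was 9.50 to 9.67 with oil and 9.37 to 9.47 with E2. A gene that stays level in the oviduct therefore rises by this measure, as did Wfdc18, whose own difference there was 0.03.

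**Figure D3:**
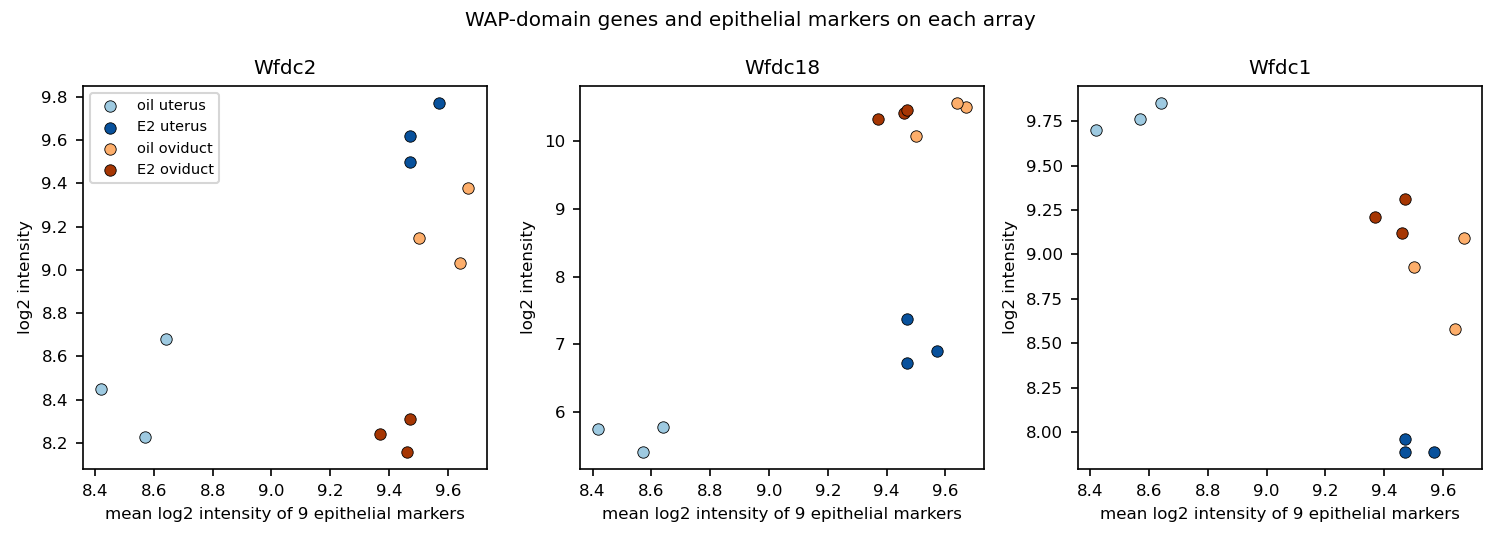
Log2 intensity of Wfdc2, Wfdc18 and Wfdc1 (y axes) against the mean log2 intensity of 9 epithelial markers (x axis) on each of the 12 arrays, coloured by group. Epithelial means run from 8.42 to 8.64 in oil uterus and from 9.37 to 9.67 in the other 3 groups, among which Wfdc2 runs from 8.16 to 9.77.

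The antibacterial genes Wfdc12 and Wfdc15b differed from each other in their levels across tissues. Wfdc15b was at 6.11, 6.19 and 6.05 in oil uterus, at 5.92, 5.76 and 5.79 in E2 uterus, at 7.71, 8.02 and 8.03 in oil oviduct and at 8.31, 8.23 and 8.14 in E2 oviduct. No group overlapped another. In the uterus it fell by 0.29 (SE 0.09, 1.22-fold, limma adjusted p = 0.036), and in the oviduct it was 0.31 higher with E2 (SE 0.09, 95% interval 0.10 to 0.51, adjusted p = 0.25), which did not pass. The uterine fall lost its call with log2(value + 16) (-0.23, adjusted p = 0.051) and with replicate number as a block (0.057). It was also lost without oil uterus replicate 1 (-0.29, adjusted p = 0.082) or 2 (-0.26, 0.11), E2 uterus replicate 2 (-0.26, 0.12) or 3 (-0.28, 0.091) or E2 oviduct replicate 2 (-0.29, 0.051).

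The difference between the effects on Wfdc15b in oviduct and uterus, 0.60 (SE 0.13, limma adjusted p = 0.012), passed in the main fit and in all 22 alternatives. Wfdc15b was 1.80 higher in oviduct than in uterus with oil (SE 0.09, 3.49-fold, limma adjusted p = 5.7e-08) and 2.40 higher with E2 (SE 0.09, 5.29-fold, limma adjusted p = 1.1e-08). Wfdc12 was low everywhere, at 4.90, 4.85 and 5.12 in oil uterus, 4.96, 4.88 and 4.89 in E2 uterus, 4.85, 5.04 and 4.71 in oil oviduct and 5.14, 5.22 and 5.54 in E2 oviduct. E2 oviduct arrays were the highest, and the other 3 groups overlapped. Neither E2 effect on Wfdc12 passed, at -0.04 in uterus (95% interval -0.30 to 0.21) and 0.43 in oviduct (0.18 to 0.69, limma adjusted p = 0.20). With E2 it was 0.39 higher in oviduct than in uterus (limma adjusted p = 0.023). That call was lost without E2 uterus replicate 2 (0.37, 0.068) or 3 (0.38, 0.061) or E2 oviduct replicate 3 (0.27, 0.097). The effects on Wfdc12 in oviduct and uterus differed by 0.48 (95% interval 0.12 to 0.84, limma adjusted p = 0.091). This difference did not pass, but did with array weights (0.51, limma adjusted p = 0.021).

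Wfdc1, the stromal growth-restraining protein, was at 9.85, 9.70 and 9.76 in oil uterus and at 7.96, 7.89 and 7.89 in E2 uterus. The E2 arrays lay far below every oil array, and the fall was 1.86 (SE 0.11, 3.63-fold, limma adjusted p = 5.4e-07). In the oviduct Wfdc1 was at 8.93, 9.09 and 8.58 with oil and at 9.12, 9.21 and 9.31 with E2. Those arrays did not overlap, but the difference of 0.35 (SE 0.11, 95% interval 0.10 to 0.59, limma adjusted p = 0.28) did not pass, and without both arrays of oil replicate 3 it was 0.20. The effects in oviduct and uterus differed by 2.21 (SE 0.16, limma adjusted p = 1.3e-05). With oil, Wfdc1 was 0.90 lower in oviduct than in uterus (SE 0.11, adjusted p = 4.8e-05), and with E2 it was 1.30 higher (SE 0.11, limma adjusted p = 4.1e-06). Its order over the groups, oil uterus, E2 oviduct, oil oviduct, E2 uterus, had no overlap between neighbours.

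Markers of stroma and smooth muscle are given beside Wfdc1. Of 6 stromal markers 2 fell with E2 and 0 rose by limma, with a median of -0.18, and their summed intensity was 15956 to 16883 in oil uterus, 15332 to 15673 in E2 uterus, 12574 to 13963 in oil oviduct and 13902 to 14393 in E2 oviduct. Of 6 smooth muscle markers 2 rose and 0 fell, with sums of 13986 to 19168 in oil uterus, 19219 to 19888 in E2 uterus, 13991 to 15662 in oil oviduct and 13329 to 15826 in E2 oviduct. Their part in the fall of Wfdc1 was not tested.

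Wfdc3 was read by 2 probe sets that did not give the same picture. The probe set with the higher mean, used in the counts above, was at 6.29, 6.30 and 6.25 in oil uterus, 6.38, 6.57 and 6.36 in E2 uterus, 6.89, 6.80 and 7.77 in oil oviduct and 6.77, 6.89 and 6.90 in E2 oviduct. Neither E2 effect passed, at 0.15 in uterus (95% interval -0.27 to 0.58) and -0.30 in oviduct (-0.73 to 0.12). It was 0.87 higher in oviduct than in uterus with oil (SE 0.19, limma adjusted p = 0.0036), and 0.55 without both arrays of oil replicate 3. With E2 the difference was 0.42 (adjusted p = 0.13), which passed in 4 alternatives. These were array weights (0.33, adjusted p = 0.015), the E2 arrays fitted alone (0.42, 0.0042), and the fits without oil oviduct replicate 3 (0.42, 0.00092) or both arrays of oil replicate 3 (0.42, 0.0011).

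On that array Wfdc3 lay 0.92 above the mean of the other oil oviduct arrays, where the ciliated cell markers averaged 9.38 against 8.30 and 8.59 and the corpus luteum markers 8.62 against 4.81 and 5.59. Their part in its level was not tested. The second probe set, the one whose annotation lists the curated RefSeq transcript of Wfdc3, was at 6.94, 6.87 and 6.92 in oil uterus and at 5.80, 5.69 and 5.50 in E2 uterus. These arrays did not overlap, and with this probe set in its place Wfdc3 fell by 1.25 in the uterus (SE 0.11, 2.38-fold, limma adjusted p = 1.1e-05). In the oviduct this probe set was at 5.73, 5.77 and 6.16 with oil and 5.86, 5.82 and 5.92 with E2, a difference of -0.02 (95% interval -0.26 to 0.22). With oil it was 1.03 lower in oviduct than in uterus (SE 0.11, limma adjusted p = 1.7e-05), opposite to the other probe set. With it the members called in uterus were 3 higher and 3 lower. The direction of Wfdc3 thus depended on the probe set, and this comparison was added after the values were seen.

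Between tissues, 5 of the 7 genes were higher in oviduct and 1 (Wfdc1) lower with oil, where 38.7% of all genes were called (17.3% higher and 21.5% lower). With E2, 4 were higher and 1 (Wfdc2) lower, against 34.1% of all genes (15.2% higher and 18.9% lower). The count with oil includes Wfdc3, and it was 4 higher and 2 lower with the second Wfdc3 probe set, or 4 and 1 with the mean of the probe sets of each gene. Uterus and oviduct arrays did not overlap for 6 of the 7 genes with oil, against 46.6% of all genes, and for 6 of the 7 with E2, against 49.8%. Slpi was 0.39 higher in oviduct with oil (SE 0.13, limma adjusted p = 0.031). That call was lost in a fit of the oil arrays alone (0.065) and without oil uterus replicate 1 (0.42, adjusted p = 0.052) or 2 (0.24, 0.12) or oil oviduct replicate 1 (0.38, 0.076) or 2 (0.37, 0.078). With E2 the difference in Slpi was 0.05 (95% interval -0.23 to 0.33). E2 effects differed between the tissues for 4 of the 7 genes, with the oviductal effect higher for Wfdc15b and Wfdc1 and lower for Wfdc2 and Wfdc18, against 11.5% of all genes (5.77% higher and 5.71% lower). With the second Wfdc3 probe set the interaction of Wfdc3 passed as well (1.23, SE 0.16, limma adjusted p = 0.00044). The count was then 5, with 3 higher and 2 lower. The interaction of Slpi was -0.34 (95% interval -0.74 to 0.05). The comparisons share arrays and are not independent of one another.

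Over the 12 arrays, the genes whose levels were most like each member by Pearson r are given as a description, since tissue and treatment are shared by all of them. Wfdc18 was most like the epithelial transcription factor gene Ehf (r = 0.992), Celsr1 (0.992) and the ciliary dynein gene Dnah12 (0.990). Wfdc15b was most like Ehd3 (0.998), the T-box gene Tbx2 (0.994) and Atp13a5 (0.992). Wfdc1 was most like the Fzd4 ligand gene Ndp (0.975), Stx18 (0.970) and Ddah1 (0.961), which fell from 9.28 to 6.60, 9.35 to 8.06 and 8.90 to 6.15 in uterine group means. Wfdc2 was most like L1cam (0.940), the villin-like gene Vill (0.916) and Rab32 (0.915). Slpi was most like Agap3 (0.951), Mvp (0.942) and Tm7sf2 (0.911), Wfdc12 like Ssr4 (0.880), Arg2 (0.879) and Col12a1 (0.868), and Wfdc3 like Cage1 (0.978), Paqr7 (0.970) and Spag1 (0.969). The values for Wfdc3 hold for its probe set with the higher mean only, which was highest on oil oviduct replicate 3 (7.77). Among the members, Wfdc18 and Wfdc15b were the most alike (0.94) and Wfdc2 and Wfdc1 the most opposed (-0.81).

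The rest of the family comprised 16 other WAP-domain genes, all measured. In the uterus 4 of them rose and 1 fell by limma, and in the oviduct 0 passed (2 had an unadjusted p under 0.05). Of all genes, 26.7% were called in uterus and 0.291% in oviduct, and the medians over the 16 were 0.15 and 0.01. Wfdc10 rose most, from 7.77, 7.80 and 6.84 with oil to 9.12, 9.53 and 9.43 with E2 (1.89, SE 0.28, limma adjusted p = 4e-04), and by 1.57 without both arrays of oil replicate 3. The growth factor inhibitor Wfikkn2 went from 6.03, 5.76 and 6.16 to 7.08, 7.08 and 7.45, a rise of 1.22 (SE 0.12, limma adjusted p = 2.6e-05). For both genes the E2 arrays lay above all oil arrays. Wfdc16 rose by 0.56 (SE 0.10, mean 4.84 to 5.40) and Wfdc8 by 0.46 (SE 0.10, 4.76 to 5.22), while Wfdc13 fell by 0.32 (SE 0.10, 6.39 to 6.06). These levels, and those of Wfikkn2, are in the range of Y-linked genes, so the sizes of the changes are uncertain. The call of Wfdc13 ended without oil uterus replicate 1 (-0.24) or E2 uterus replicate 2 (-0.33) or 3 (-0.29).

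The E2 effects in oviduct and uterus differed for Wfdc10, Wfikkn2, Wfdc16 and Wfdc8, at -1.67, -1.06, -0.68 and -0.57 (SE 0.39, 0.17, 0.13 and 0.15). The call of Wfdc8 ended without oil uterus replicate 2 (-0.54), E2 uterus replicate 1 (-0.49) or E2 oviduct replicate 1 (-0.57) or 2 (-0.54). Between tissues with oil, 1 of the 16 passed, beside 38.7% of all genes. It was Wfdc6a, which was 1.20 higher in oviduct (SE 0.24) and 1.55 without both arrays of oil replicate 3. That count was 3 without oil oviduct replicate 3 alone. With E2, 2 were higher in oviduct and 5 lower, beside 34.1% of all genes called, and 4 in all without E2 oviduct replicate 2, and the largest differences were -1.80 for Wfdc10 (SE 0.28), 1.66 for Wfdc6a (SE 0.24), -1.18 for Wfikkn2 (SE 0.12) and -0.63 for Wfdc16 (SE 0.10). Wap itself, the whey protein gene, did not pass in any of the 5 comparisons and was at means of 5.76 to 5.86. Wfdc17, made by macrophages, was 0.43 higher with E2 in uterus (SE 0.22, limma adjusted p = 0.20) and 0.62 higher in oviduct (SE 0.22, 0.34), and neither passed.

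Along chromosome 2 the WAP cluster from Wfdc5 to Wfdc3 holds 32 protein-coding genes in the mouse gene table (GRCm38.p6), all measured. In the uterus 6 of them rose and 2 fell with E2, a share near the 26.7% of all genes called, and in the oviduct 1 fell, which was Wfdc2. Other than WAP-domain genes, Pigt, which attaches proteins to lipid anchors, was the 1 gene called there (0.26 in uterus, SE 0.06). The direct neighbours of Wfdc2, Pigt and Spint3, were at 0.23 and 0.08 in oviduct and did not pass (adjusted p = 0.19 and 0.91). Wfdc10 overlaps Wfdc9 and Wfdc8 overlaps Wfdc6b in that table.

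**Figure D4:**
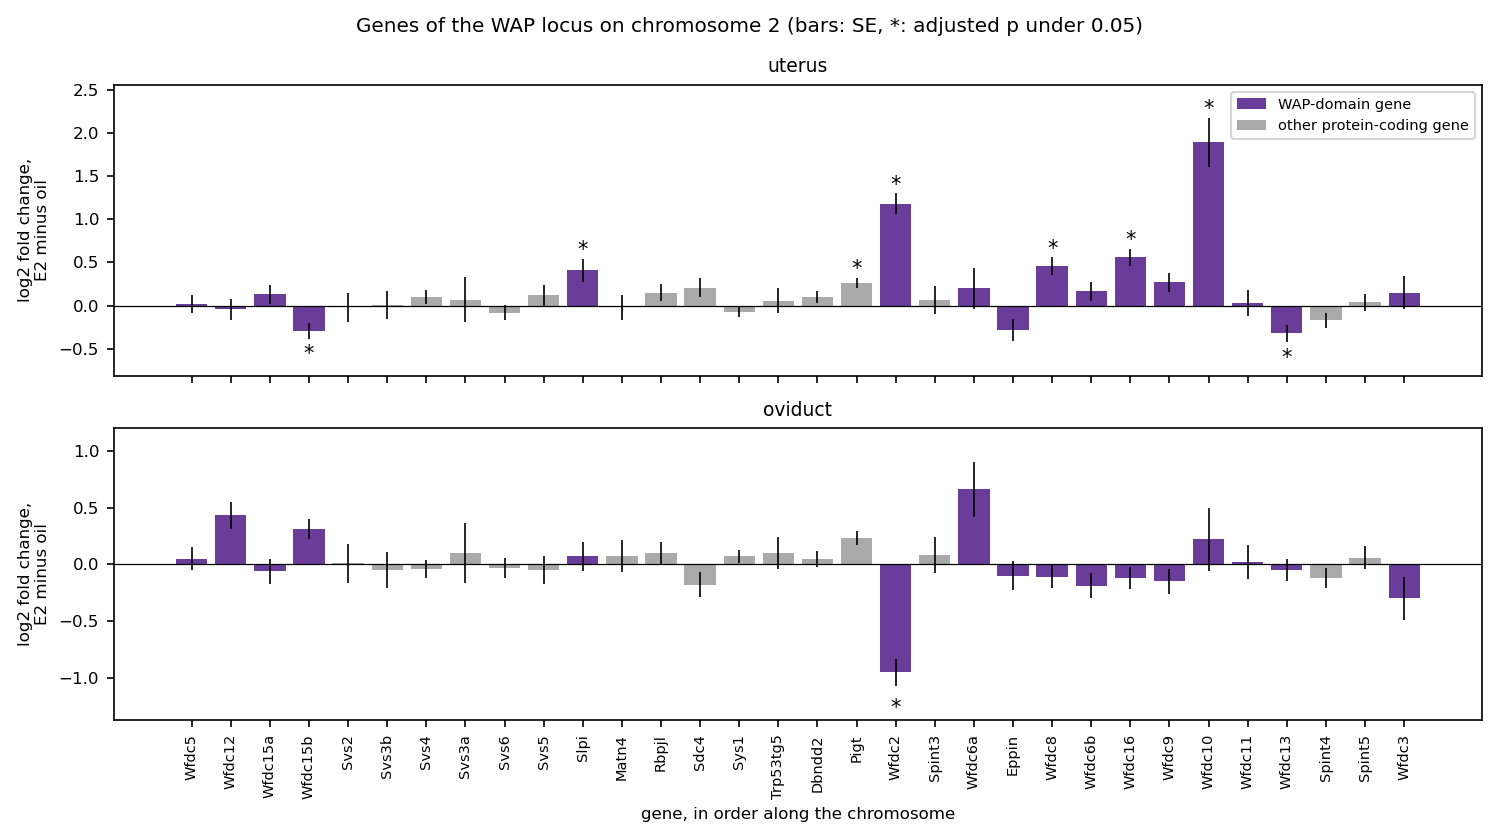
Log2 fold change of E2 against oil for the 32 protein-coding genes of the chromosome 2 WAP cluster in gene order, in uterus (top) and oviduct (bottom), with SE bars (n = 3 arrays per group). WAP-domain genes are purple and asterisks mark an adjusted p under 0.05. In uterus Wfdc10 is the tallest bar at 1.89, and in oviduct Wfdc2 carries the one asterisk at -0.95.

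Serine proteases, the targets of such inhibitors, and the Slpi partner Grn were measured as 26 genes. In the uterus 8 rose and 0 fell by limma, beside 12.4% and 14.3% of all genes, with a median of 0.18, and in the oviduct 0 passed (3 at an unadjusted p under 0.05). The 4 largest rises were of membrane-anchored epithelial proteases: Tmprss11d (1.93, SE 0.13, from a mean of 3.65 to 5.58), St14, the gene of matriptase (1.39, SE 0.09), Tmprss13 (1.25, SE 0.17) and Tmprss4 (1.08, SE 0.14). With oil Tmprss11d was under the 5.36 of Y-linked genes other than Sry. Tmprss13 and Tmprss4 were at means of 5.67 and 6.56, under the 7.50 of Sry, so these 3 sizes are uncertain. Grn, the gene of progranulin, which Slpi protects from elastase, rose by 0.59 (SE 0.08). Epithelial markers rose beside these genes, as given above. The uterine count was 14 with array weights and 5 of 7 genes with the filter on low values. In the interaction 7 of the 26 were lower in oviduct, beside 5.71% of all genes, led by Tmprss11d at -1.93 (SE 0.19).

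Of 26 measured small protease inhibitors of other families (Kunitz, Kazal, cystatin and macroglobulin), 6 rose and 1 fell in the uterus (median 0.04), a share near the 26.7% of all genes called, and in the oviduct 0 passed, with 0 at an unadjusted p under 0.05. Spink1, a trypsin inhibitor, fell by 3.92 (SE 0.24), from a mean of 7.43 to 3.51, and Spink12 rose by 2.01 (SE 0.11), from 4.18 to 6.19. Their lower levels are under the 5.36 of Y-linked genes other than Sry, so the sizes are uncertain. Also in the uterus, the protease-trapping A2m rose by 1.85 (SE 0.26) and Spint2, an inhibitor of matriptase, by 1.14 (SE 0.07). Wfdc2 was the 1 gene called in the oviduct among the 7 members, the 16 other WAP-domain genes, the 26 proteases and partners and the 26 other inhibitors.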

How the data were processed

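Per the labels' protocols, total RNA was extracted from frozen tissue with TRIzol, and the authors turned the scans into an RMA intensity for every probe set, per the submitters' processing notes. No version of RMA and no further step is stated there. RMA subtracts background and equalises the arrays, so an overall shift between groups would be removed. The deposited intensities were linear (array maxima 9102 to 9950) and were log2 transformed. Of 35556 probe sets, 21789 had 1 gene symbol in the platform annotation, 1621 had several and were not used, and 12146 were unlisted. The probe set with the highest mean stood for each of 19938 genes.

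The tests are two-sided and come from limma 3.58.1 (R 4.3.3), with 1 linear model over all 12 arrays, moderated variances and Benjamini-Hochberg adjustment over all genes. Differences are given with the standard error (SE). Precision is limited by the 3 arrays of a group. The fit was tested on simulated data with independent noise. These held no displaced array and no paired mice, so that test does not cover either.

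The members, lists and tests were chosen with earlier results of these data known. Named were all members, up to 4 called genes of each other list in a comparison, and the 3 genes most like each called member. Wfdc13, Wap, Wfdc17, Grn, Pigt and Spint3 were named after their values were seen. Markers of macrophages, adipocytes and the oviduct were also measured: with E2, 5 of 7, 0 of 5 and 1 of 3 rose in uterus, 0 fell, and 0 changed in oviduct by limma. The adipocyte markers averaged 8.25 on E2 uterus replicate 3, against 6.31 and 6.08 on the other E2 uterus arrays. By limma all 5 were higher in oviduct than in uterus, with medians of 2.48 with oil and 1.91 with E2. Their part in the differences between tissues was not tested. Lhcgr, Prlr and Cst8 were not analysed here. Whether equal replicate numbers of uterus and oviduct mark the same mouse is not stated, so the numbers were not taken as pairs. Under 1 treatment, equal numbers deviated together at r over 0.1 in 2 of 6 pairs and unequal numbers in 3 of 12. The values of r ran from 0 to 0.26 for equal and from -0.28 to 0.26 for unequal numbers. This does not settle the question. Alternatives were other scalings, a pseudocount of 16, a filter on low values, other gene measures, variance models and array weights, separate fits, replicate blocks and left-out arrays. The second Wfdc3 probe set, the values relative to epithelial markers and the gene order of the cluster were added after seeing the data.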

Additional observations from a re-analysis of the deposited data

Results flagged for a closer look

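The E2 effect differed between oviduct and uterus, by limma's interaction contrast, for 4 members and 4 other WAP-domain genes. Wfdc3 is not among them, but passed with its second probe set (1.23), which made the members 5. As the oviductal minus the uterine effect in log2 units, the differences were 2.21 for Wfdc1, -2.13 for Wfdc2, -1.67 for Wfdc10, -1.32 for Wfdc18, -1.06 for Wfikkn2, -0.68 for Wfdc16, 0.60 for Wfdc15b and -0.57 for Wfdc8. Wfdc2 is the 1 gene of these 8 that passed the test in both tissues, with opposite signs.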

How the results depend on the processing

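Calls of Wfdc2, Wfdc18 and Wfdc1 in uterus and of Wfdc2, Wfdc18, Wfdc15b and Wfdc1 in the interaction held under every alternative run. Over all members and comparisons, 743 of 788 alternative values kept their direction and side of the threshold. The count of members called in uterus was 5 and lay between 3 and 5 with any 1 array left out, and that in oviduct was 1 and lay between 0 and 1, being 0 in a fit of the oviduct alone. With replicate number as a block the uterine count was 4 and the oviductal 1, and with the number within treatment as a random block they were 5 and 1. Genes called in oviduct numbered 58, with 264 under array weights, 10 in a fit of the oviduct alone, 121 without both arrays of oil replicate 3, and 14 to 67 with any 1 array left out. Array weights also gave 8214 called genes in uterus (against 5332), 4531 in the interaction (against 2288) and 10554 between the tissues with E2 (against 6793). The cause was not tested.

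Signs turned for differences that had not passed: Slpi in oviduct (-0.01 without E2 oviduct replicate 1, and up to 0.19 without another array) and between tissues with E2 (-0.02 without that array, -0.01 without E2 oviduct replicate 3, up to 0.17), Wfdc12 in uterus (0.04 without oil uterus replicate 3 or both arrays of oil replicate 3, down to -0.10 without another array) and between tissues with oil (0.07 without both), and Wfdc18 in oviduct (-0.12 without oil oviduct replicate 1, 0.00 without E2 oviduct replicate 3, up to 0.12). Wfdc3 in oviduct came to 0.00 without oil oviduct replicate 3 or both, and to -0.48 without oil oviduct replicate 2. For Wfdc3, whose difference between tissues with oil had passed (0.87), the mean of its probe sets gave -0.55 in uterus, 0.39 in the interaction and -0.08 between tissues with oil, and the second probe set alone gave -1.25, 1.23 and -1.03. Slpi, Wfdc12 and Wfdc3 lay under the filter on low values, which left 4 members, and of the other WAP-domain genes it left 1 called in uterus.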
